A study of Mus musculus with 4 samples.

Results

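The genes described here are the MAP kinase cascade and dual-specificity phosphatase (DUSP) genes of the mouse, and the values are the SMAD4 binding peaks around them in alveolar macrophages (AMs). Members were the protein-coding genes with a curated RefSeq transcript on mm10 whose symbol starts with Mapk, Map2k, Map3k, Map4k or Dusp followed directly by a digit. This gave 73 of 20923 protein-coding genes. Of the 73, 43 encode kinases (13 MAPK, 7 MAP2K, 18 MAP3K and 5 MAP4K genes) and 24 encode DUSPs (10 MAP kinase phosphatases and 14 other DUSPs). The remaining 6, which encode scaffolds, binding partners or a protein that resembles part of a kinase, were kept apart from both. The rule uses gene symbols and no binding value, but it was set with earlier results of these data known.

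AMs, the macrophages that live in the airspaces of the lung, were washed out of the lungs of 9-wk-old wild-type C57BL/6J mice and sorted by FACS. SMAD4 binding was profiled by HT-ChIPmentation, in which fixed chromatin is immunoprecipitated and a transposase adds the sequencing adapters on the beads. There were 2 SMAD4 libraries, called replicates 1 and 2 here in the order of their records, and 2 input libraries without antibody. No treatment is given for any of the 4 libraries, which share genotype and age, so that the comparisons are between classes of genes within a library and not between groups of samples. The labels do not say whether the SMAD4 libraries came from separate mice, and the spread between them may be technical.

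MAP kinase signaling passes along a relay of kinases. A MAP4K or a receptor complex activates a MAP3K, which activates a MAP2K, which in turn activates a MAPK of the ERK, p38, JNK or ERK5 type. The MAP kinase phosphatases among the DUSPs take phosphate off both the threonine and the tyrosine that activate a MAPK. They are well known as feedback inhibitors, since several are themselves induced by the pathway they switch off. The other DUSPs are counted with them as phosphatase genes by symbol, whatever their substrate. SMAD4 is the partner that SMADs activated by TGFβ receptors take along to DNA. TGFβ receptors can also start a MAP kinase relay, through TAK1, the product of Map3k7. In macrophages, p38 and the MAP3K encoded by Map3k8 drive cytokine production, and the phosphatase encoded by Dusp1 holds it back.

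Replicate 1 held 16369 peaks and replicate 2 held 19015. An interval made of overlapping peaks of both lists, with an overlap of at least 1 bp, is called a shared region, and there were 10964. Each peak has a fold enrichment, which is the height of the fragment pileup at its summit over the level that the control predicts, with 1 added to both. The number of fragments at the summit was solved from the deposited values. A region was assigned to the gene with the nearest transcription start site (TSS), and separately to every gene with a TSS within 50 kb. Peaks of each list and shared regions were counted in the same way for all protein-coding genes, which gives the background. Assignment by distance does not show which gene a region acts on.

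The summits of the strongest regions are shown first, because each is the strongest of the regions nearest to its gene. A stronger region around Mapk6, at folds of 25.0 and 35.2, was nearer to another gene and is not among them. For the 6 members with the strongest regions by the smaller of the 2 folds, leaving aside Map3k8, whose sequence is not printed here, the 201 bases centred on the mean of both summits were read from the RefSeq assembly GRCm38.p6 (mm10), forward strand, 5′ to 3′. Capitals mark matches on either strand to 7 short consensus strings. These were TTNNNNAA for the CEBP family, with purine, pyrimidine, purine and pyrimidine in turn at the 4 N, GAGGAAGT for PU.1, CAGGAAGT for other ETS factors, TGANTCA for AP-1, TGTGGT for RUNX, and the SMAD strings GTCTGG and GTCTAGAC. No string contains another, and a match is a description of letters and not a binding site.
Map3k7cl (chr16:87612638-87612838): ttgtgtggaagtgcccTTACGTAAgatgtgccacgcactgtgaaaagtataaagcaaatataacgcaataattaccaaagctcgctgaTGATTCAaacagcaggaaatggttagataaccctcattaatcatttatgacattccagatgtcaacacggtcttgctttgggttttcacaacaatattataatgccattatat
Map3k20 (chr2:72366562-72366762): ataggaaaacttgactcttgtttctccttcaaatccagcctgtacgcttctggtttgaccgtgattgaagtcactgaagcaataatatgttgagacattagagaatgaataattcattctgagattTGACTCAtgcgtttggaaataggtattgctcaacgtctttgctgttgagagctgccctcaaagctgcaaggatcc
Dusp6 (chr10:99425378-99425578): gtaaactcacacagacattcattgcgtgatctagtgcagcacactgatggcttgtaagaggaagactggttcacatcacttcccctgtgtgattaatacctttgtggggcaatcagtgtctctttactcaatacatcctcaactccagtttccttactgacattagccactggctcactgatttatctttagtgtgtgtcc
Map3k5 (chr10:19942013-19942213): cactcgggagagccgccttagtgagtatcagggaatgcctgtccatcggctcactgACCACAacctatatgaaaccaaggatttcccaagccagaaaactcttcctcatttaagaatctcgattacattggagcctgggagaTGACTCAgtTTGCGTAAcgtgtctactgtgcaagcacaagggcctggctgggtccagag
Mapk14 (chr17:28698784-28698984): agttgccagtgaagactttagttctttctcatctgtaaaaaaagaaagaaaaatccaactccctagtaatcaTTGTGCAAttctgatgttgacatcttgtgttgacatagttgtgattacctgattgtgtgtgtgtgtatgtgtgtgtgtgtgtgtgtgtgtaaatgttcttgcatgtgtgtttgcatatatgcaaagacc
Mapk6 (chr9:75385242-75385442): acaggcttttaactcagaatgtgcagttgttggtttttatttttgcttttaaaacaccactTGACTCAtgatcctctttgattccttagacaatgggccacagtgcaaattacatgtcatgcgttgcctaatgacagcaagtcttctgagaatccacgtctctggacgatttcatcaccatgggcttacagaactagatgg
The Map3k7cl and Map3k5 summits each held a CEBP and an AP-1 string, and in Map3k5 these lie next to each other. The Map3k20 and Mapk6 summits held the AP-1 string TGACTCA alone, and the Mapk14 summit held a CEBP string alone. The strongest Dusp6 summit matched none of the 7 strings. A further window is shown because it is the 1 region of the 79 nearest to a member that held the SMAD palindrome GTCTAGAC, and it was chosen after that match was seen. It lies in an intron of Mapk14.
Mapk14 palindrome region (chr17:28697449-28697649): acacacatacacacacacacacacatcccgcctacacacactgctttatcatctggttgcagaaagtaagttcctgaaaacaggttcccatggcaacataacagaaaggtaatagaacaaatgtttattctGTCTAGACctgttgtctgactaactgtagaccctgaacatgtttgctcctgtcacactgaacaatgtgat

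Members had SMAD4 regions more often than protein-coding genes at large. A shared region was nearest to 30 of the 73 members (41.1%), against 21.5% of all protein-coding genes, and lay within 50 kb of 40 members (54.8%), against 37.5%. In replicate 1, peaks were nearest to 38 members, where the background was 27.2% of protein-coding genes. In replicate 2 they were nearest to 32, with a background of 31.2%. Within 50 kb, peaks of replicate 1 lay near 48 members (background 44.3%) and peaks of replicate 2 near 46 (background 51.4%). The excess over the background was therefore larger in replicate 1 than in replicate 2, and it was present in both. Altogether 79 shared regions were nearest to a member. Of the 73 members, 11 (15.1%) had 3 or more, against 4.84% of protein-coding genes. No peak of either list was nearest to 34 of the 73 members, against 13584 of the 20923 protein-coding genes. None was nearest or within 50 kb for 21 members, against 8441 protein-coding genes.

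Kinase genes had a shared region more often than phosphatase genes by nearest TSS and within 50 kb, though not within 10 kb. A shared region was nearest to 20 of 43 kinase genes (46.5%) and to 7 of 24 phosphatase genes (29.2%), beside the 21.5% background. Within 50 kb the counts were 25 kinase genes (58.1%) and 11 phosphatase genes (45.8%), beside 37.5%. Within 10 kb the shares were about equal, at 11 kinase genes (25.6%) and 6 phosphatase genes (25%), beside 14.6% of protein-coding genes. Read per list, peaks were nearest to 24 kinase genes in replicate 1 and 20 in replicate 2, which is 51.2% ± 6.58 (SD, n = 2), and to 11 and 9 phosphatase genes, which is 41.7% ± 5.89 (SD, n = 2). All protein-coding genes gave 29.2% ± 2.81 (SD, n = 2). The kinase share was above the phosphatase share by 9.98 percentage points in replicate 1 and 9.01 in replicate 2, and by 17.3 points for shared regions. Both classes were counted in the same lists, and both shares were lower in replicate 2. With 2 libraries the smallest two-sided p that a sign-flip permutation allows is 0.5, so that no test of this difference is given.

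The number of regions per gene was more even between the classes, because a few genes held many. Kinase genes had 51 shared regions nearest, a mean of 1.19 per gene, and phosphatase genes had 21, a mean of 0.875, against 0.432 per protein-coding gene. Dusp6 alone accounted for 10 of the 21 phosphatase regions (47.6%). Without Dusp6 the other 23 phosphatase genes had 11 regions, a mean of 0.478. Without Map3k20, the kinase gene with the most, the other 42 kinase genes had 43 regions, a mean of 1.02. By nearest TSS, the phosphatase mean thus rests on Dusp6 and falls close to that of all protein-coding genes without it. The kinase mean does not depend on Map3k20 in this way. Within 50 kb, by contrast, Dusp6 had 3 of the 28 regions counted for phosphatase genes. The mean by that rule was 1.17 per phosphatase gene and 1.30 per kinase gene, against 0.752 per protein-coding gene.

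**Figure D1:**
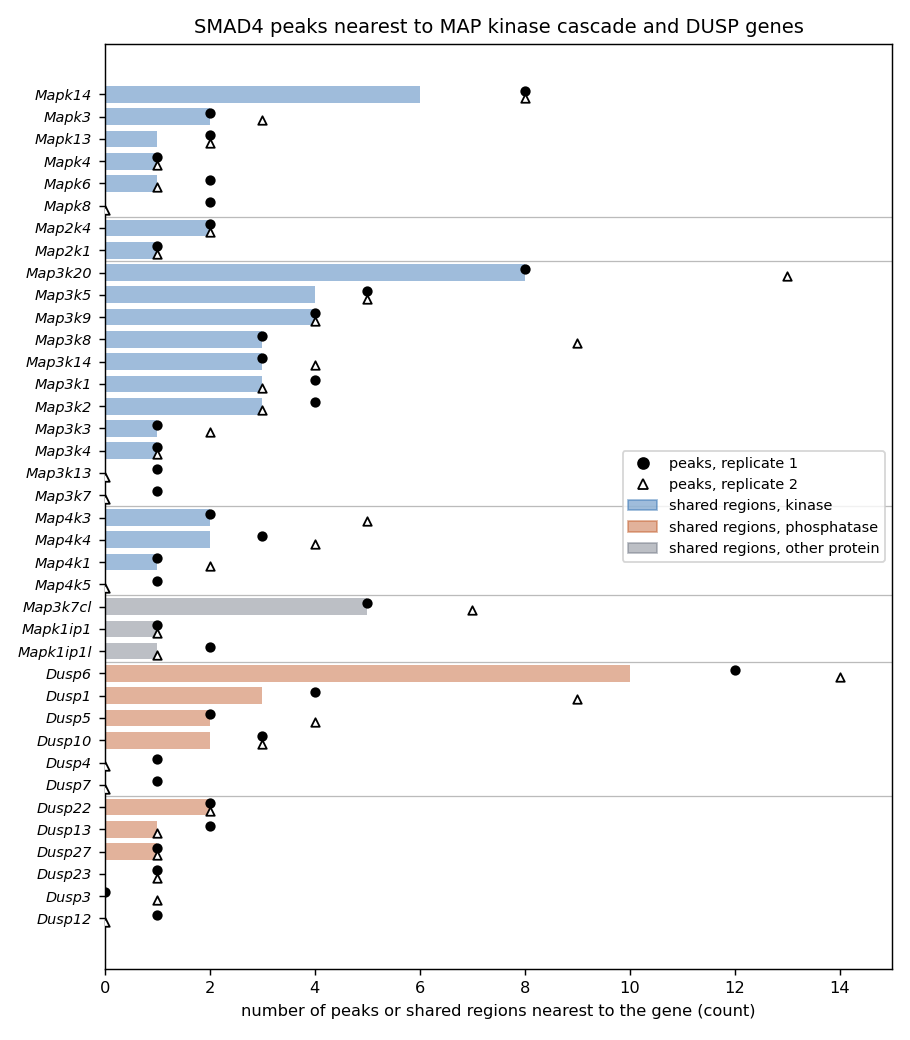
Number of SMAD4 peaks (replicate 1, filled circles; replicate 2, open triangles) and of shared regions (bars) nearest to each of 38 members with a peak in either list, grouped from top to bottom as MAPK, MAP2K, MAP3K, MAP4K, other proteins, MAP kinase phosphatases and other DUSPs. Dusp6, Map3k20 and Mapk14 have the longest bars, with 10, 8 and 6 shared regions.

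At the top of the relay, 3 of the 5 MAP4K genes (60%) had a shared region nearest, against 21.5% of protein-coding genes. MAP4Ks link receptors and small GTPases to MAP3Ks. Map4k3 had 2 shared regions from 2 peaks of replicate 1 and 5 of replicate 2, Map4k4 had 2 from 3 and 4 peaks, and Map4k1 had 1 from 1 and 2 peaks. Their strongest regions were weak to moderate. That of Map4k4 (chr1:39920635-39921119) lay in its intron, 19919 bp downstream of the TSS, with folds of 8.45 and 12.6 and 25 and 27 fragments in replicates 1 and 2. That of Map4k3 (chr17:80772372-80772810) was intergenic, 44615 bp upstream, with folds of 6.82 and 6.77 and 20 and 14 fragments. The Map4k1 region (chr7:29008036-29008519) lay in an intron of another gene, Ryr1, with folds of 5.85 and 12.2 and 17 and 26 fragments. Map4k5 had a single peak in replicate 1, at fold 3.90, and Map4k2 had none nearest.

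MAP3K genes carried most of the kinase regions. Of 18 genes, 9 had a shared region nearest (50%, against 21.5% of protein-coding genes), and these 9 held 30 of the 51 kinase regions (58.8%). MAP3K genes are also 18 of the 43 kinase genes. Per 100 kb of the sequence for which their TSSs are the nearest, they had 1.43 shared regions. This was close to MAPK genes (1.37), MAP4K genes (1.38) and all kinase genes (1.33). Map3k20, which encodes the stress kinase ZAK, had 8 from 8 and 13 peaks. Only 0.444% of protein-coding genes had as many. Map3k5, which encodes the oxidative stress kinase ASK1, and Map3k9, a mixed-lineage kinase, had 4 each. Map3k1, Map3k2, Map3k8 and Map3k14 had 3 each, and Map3k3 and Map3k4 had 1 each. Map3k8 encodes Tpl2, which connects Toll-like receptors to ERK, and Map3k14 encodes NIK, the kinase that starts noncanonical NF-κB signaling.

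The Map3k20 regions spread over 196 kb on both sides of its TSS. The strongest (chr2:72366266-72367050) lay in an intron, 80961 bp downstream of the TSS, with folds of 27.9 and 41.1 and 85 and 90 fragments. Its smaller fold was at percentile 98.9 of all shared regions. A further 4 lay inside the neighbouring gene Rapgef4, between 63940 and 114839 bp upstream, and the strongest of these had folds of 20.8 and 38.4. Replicate 2 had 5 peaks at this gene with no partner in replicate 1, with folds from 3.32 to 7.67.

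Map3k5 differed in that 3 of its 4 regions sat close together in an intron, 4851, 6764 and 7587 bp downstream of the TSS. The strongest (chr10:19941733-19942338) had folds of 19.2 and 29.3 and 58 and 64 fragments, and the fourth lay 75686 bp downstream. All shared regions nearest to Map3k8 were intergenic and downstream. The strongest, on chromosome 18, was 64917 bp from the TSS with folds of 18.5 and 33.8 and 56 and 74 fragments. Nearest to Map3k8, replicate 2 also had 6 peaks that replicate 1 lacked, and 2 of them lay 91 and 261 bp upstream of its TSS with folds of 6.77 and 4.51. A shared region 1752 bp upstream of the Map3k8 TSS, at folds of 5.52 and 8.12, was nearest to another gene, 4833419F23Rik. At Map3k1, Map3k2 and Map3k14 the 3 regions of each gene lay on both sides of the TSS and no more than 21144 bp from it, and their folds in replicate 1 ranged from 4.87 to 10.4. Map3k9 was the 1 kinase gene with regions in exons, at folds of 6.50 and 9.02 and of 5.20 and 4.96.

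Map3k7, the gene of TAK1, had no shared region. Replicate 1 had 1 peak nearest to it, 31790 bp downstream, with a fold of 4.87 and 14 fragments, and replicate 2 had none. The closest shared region was 287 kb away, and its nearest gene was Bach2. The TSS of Map3k7 is the nearest for 876 kb of sequence. Map3k13 likewise had 1 peak in replicate 1 alone. No peak was nearest to the other 7 MAP3K genes (Map3k6, Map3k10, Map3k11, Map3k12, Map3k15, Map3k19 and Map3k21).

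MAP2K genes were the kinase class with the fewest regions. Of 7 genes, 2 had a shared region nearest, a share of 28.6%, against 21.5% of protein-coding genes. The genes with a peak nearest numbered 2 in each list as well, a share between the backgrounds of 27.2% in replicate 1 and 31.2% in replicate 2. Map2k1, which encodes the ERK activator MEK1, had 1 (chr9:64249782-64250055), in its intron 3673 bp downstream of the TSS, with folds of 10.7 and 9.02 and 32 and 19 fragments. This was among the few member regions where replicate 1 had the higher fold. Map2k4, which encodes an activator of JNK and p38, had 2 intronic regions from 2 and 2 peaks, the stronger of them (chr11:65740355-65740995) at folds of 8.12 and 10.8 and 24 and 23 fragments. The other 5 MAP2K genes, which include the p38 activators Map2k3 and Map2k6, had no peak nearest in either list.

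Among the 13 MAPK genes, 6 had a shared region nearest (46.2%, against 21.5% of protein-coding genes), with 13 regions in all. Mapk14, which encodes p38α, had 6 from 8 peaks in each list, a number that 1.09% of protein-coding genes reached. They were all in its introns, and 5 of the 6 lay within 10 kb of the TSS. The strongest (chr17:28698537-28699092) was 6316 bp downstream of the TSS with folds of 17.5 and 21.2 and 53 and 46 fragments, and the others had folds from 6.50 to 11.0 in replicate 1 and from 9.48 to 12.6 in replicate 2. Its TSS is the nearest for 40.3 kb of sequence, which gave 14.9 shared regions per 100 kb. No member had a higher density.

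Other MAPK genes had fewer regions than Mapk14. Mapk3 (ERK1) had 2 regions next to each other, 13274 and 12692 bp upstream, with folds of 5.52 and 10.8 and of 5.20 and 9.48. Mapk6, an atypical MAPK, had 1 strong intergenic region (chr9:75385136-75385598), 24017 bp downstream of its TSS, with folds of 13.3 and 15.8 and 40 and 34 fragments. Mapk13 (p38δ), whose gene lies beside Mapk14 on chromosome 17, had 1 at folds of 5.20 and 9.02, and the atypical Mapk4 had 1 at folds of 5.37 and 8.12.

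The JNK genes had no shared region nearest. Mapk8 (JNK1) had 2 peaks in replicate 1, at folds of 3.68 and 3.14 with 11 and 12 fragments, and none in replicate 2. Mapk9 and Mapk10 had no peak in either list, nearest or within 50 kb.

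The MAP kinase phosphatases held most of the phosphatase regions. Of 10 genes, 4 had a shared region nearest (40.0%, against 21.5% of protein-coding genes), and these held 17 of the 21 regions. Dusp6, which encodes the cytoplasmic phosphatase of ERK, had 10 shared regions from 12 and 14 peaks, and 0.206% of protein-coding genes had as many. The regions were spread over 219 kb, with 6 of them more than 90 kb downstream of the TSS. A promoter is taken here as the 1 kb before a TSS and the 100 bp after it. Only Dusp6 had a region whose position, the mean of both summits, lay in one. It was centred 49 bp upstream of the TSS, with folds of 8.12 and 16.7 and 24 and 36 fragments. The strongest (chr10:99425162-99425917) was intergenic, 162247 bp downstream, with folds of 20.9 and 25.9 and 69 and 73 fragments. Others lay 7375 bp downstream, with folds of 19.5 and 28.0, and 120929 bp downstream, with folds of 16.6 and 17.6. The 250 bases before the Dusp6 TSS are shown because of the promoter region, from the RefSeq promoter table on GRCm38.p6, forward strand, which held 70 of the 73 members. They matched none of the 7 strings. Of the 32851 promoters in that table, RUNX and GTCTGG strings were in 14.0% and 14.7% of the same 250 bases, the AP-1 string in 6.75%, the CEBP string in 4.58%, and the ETS, PU.1 and GTCTAGAC strings in 2.69%, 2.44% and 0.167%.
Dusp6 promoter (chr10:99262981-99263230): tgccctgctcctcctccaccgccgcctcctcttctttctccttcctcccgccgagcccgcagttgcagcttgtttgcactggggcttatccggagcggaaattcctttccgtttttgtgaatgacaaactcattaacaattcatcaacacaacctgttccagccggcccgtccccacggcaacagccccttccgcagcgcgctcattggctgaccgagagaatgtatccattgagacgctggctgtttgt

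Dusp1, the inducible nuclear phosphatase of p38 and JNK, had 3 shared regions from 4 and 9 peaks. All of them were upstream, at 1158, 4177 and 25609 bp, and intergenic by position. The edge of the closest (chr17:26509354-26509955) reached into the 1 kb before the TSS. The strongest (chr17:26512388-26512875) had folds of 12.0 and 17.1 and 36 and 37 fragments. Replicate 2 had 6 peaks at Dusp1 without a partner, with folds from 4.96 to 7.22, so that the lists differed more here than at Dusp6. Dusp5, a nuclear phosphatase of ERK, had 2 regions, and the stronger (chr19:53539912-53540417) lay in an intron 11019 bp downstream with folds of 6.86 and 21.2 and 22 and 46 fragments. No other member region had so high a ratio between the folds of the replicates. Dusp10, a phosphatase of p38 and JNK, had 2 regions about 50 kb downstream, with folds of 5.85 and 9.02 and of 5.52 and 4.96. Dusp4 and Dusp7 had 1 peak each in replicate 1 alone. Dusp2, Dusp8, Dusp9 and Dusp16 had no peak nearest.

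Of the other DUSP genes, 3 of 14 (21.4%) had a shared region nearest, close to the background of 21.5%. Dusp13 had 1 (chr14:21744969-21745668), in its own intron, 2521 bp upstream of the nearer of its TSSs, with folds of 12.3 and 16.7 and 37 and 36 fragments. Dusp22, which encodes a phosphatase of JNK signaling, had 2, and the stronger (chr13:30669360-30669810) was intronic, 9506 bp downstream, with folds of 6.50 and 11.3 and 19 and 24 fragments. Dusp27 had 1 (chr1:166115836-166116042), in an intron, with folds of 4.55 and 7.22 and 13 and 15 fragments. Dusp12 had a peak in replicate 1 alone and Dusp3 in replicate 2 alone, and Dusp23 had 1 in each list that did not overlap.

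Of the 6 members that are neither kinases nor phosphatases, 3 (50%) had a shared region nearest, against 21.5% of protein-coding genes. Map3k7cl, named for its likeness to the C-terminal part of TAK1, had the strongest region of all members (chr16:87611208-87613178), with folds of 34.8 and 51.9 and 106 and 114 fragments, at percentile 99.6 of all shared regions. It was intergenic and 59408 bp downstream of the TSS, in a group of 4 intergenic regions between 59408 and 72092 bp. With 1 more in its intron, Map3k7cl had 5 regions from 5 and 7 peaks. Mapk1ip1 and Mapk1ip1l had 1 each, at folds of 5.20 and 11.3 and of 6.82 and 6.32. The JNK scaffold genes Mapk8ip1, Mapk8ip2 and Mapk8ip3 had no peak nearest.

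**Figure D2:**
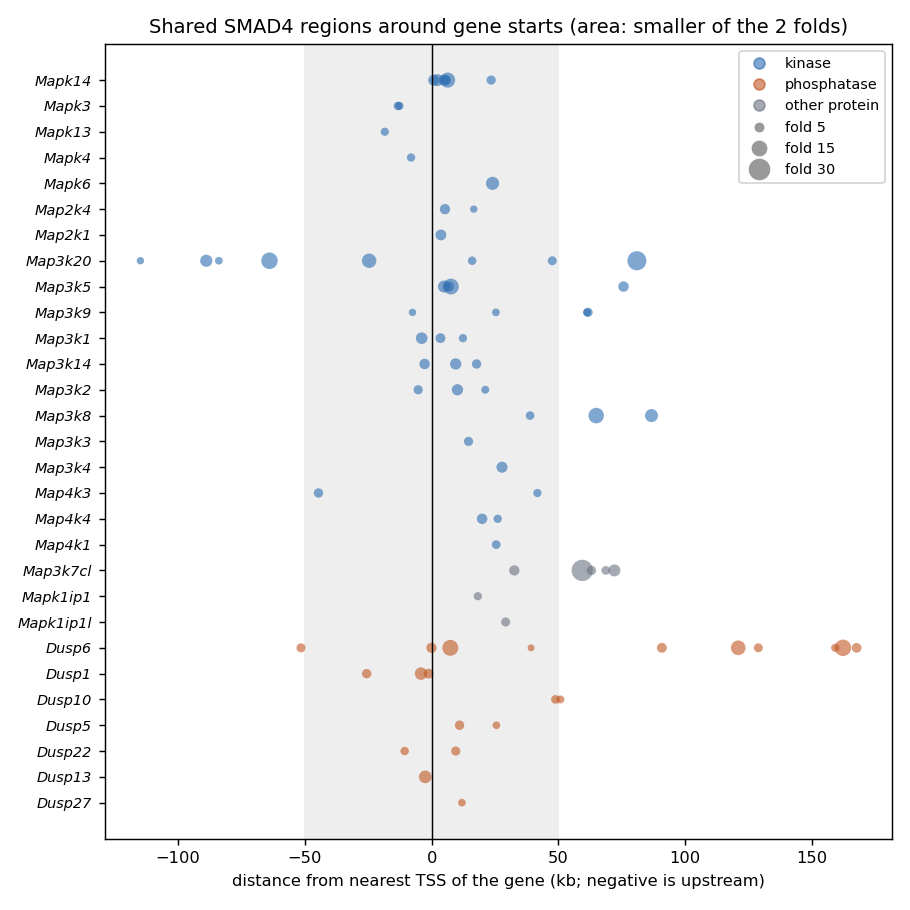
Distance (kb) of each of 77 shared regions from the nearest TSS of its gene, negative upstream, for 29 members with a shared region nearest. Point area is proportional to the smaller of the 2 fold enrichments, colour gives the class, and the grey band marks 50 kb on each side. The Mapk14 regions gather just downstream of the TSS, and those of Dusp6 and Map3k20 are spread widely.

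In all, 9 of the 73 members had peaks nearest but no shared region (Map3k7, Map3k13, Map4k5, Mapk8, Dusp3, Dusp4, Dusp7, Dusp12 and Dusp23). The same held for 2846 of the 20923 protein-coding genes. The unpartnered peaks nearest to members had folds from 3.14 to 6.17 in the 23 of replicate 1 and from 3.32 to 9.02 in the 40 of replicate 2. Their medians, 4.06 and 5.51, were below those of all peaks, 5.52 and 6.77. The strongest of them were above these. Of the peaks nearest to members, 81 of 104 in replicate 1 (77.9%) and 80 of 120 in replicate 2 (66.7%) had a partner, against 69.4% and 59.2% of all peaks.

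Kinase and phosphatase genes differed in where their regions lay. Of the 51 kinase regions, 36 (70.6%) were intronic and 13 (25.5%) intergenic, and none was in a promoter. Of the 21 phosphatase regions, 16 (76.2%) were intergenic, 4 intronic and 1 in a promoter. Over all shared regions 49.3% were intronic, 40.5% intergenic and 6.42% in promoters. Inside the body of the gene they were nearest to were 33 kinase regions (64.7%), 4 phosphatase regions (19%) and 41.9% of all. Dusp6 held 9 of the 16 intergenic phosphatase regions, and the other 7 came from the remaining genes. Gene length moved with this pattern. The median length was 47.6 kb for kinase genes, 11.8 kb for phosphatase genes and 16.8 kb for protein-coding genes, and its part in the difference was not tested.

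Length and spacing also moved with the share of genes that had a region. Of genes under 10 kb, 11.5% of protein-coding genes had a shared region nearest, against 2 of 6 kinase genes and 2 of 10 phosphatase genes. From 10 to 30 kb the values were 20.6% of protein-coding genes and 3 of 11 in each class. From 30 to 100 kb they were 30.8%, 9 of 16 kinase genes and 2 of 3 phosphatase genes, and over 100 kb 37.6% and 6 of 10 kinase genes, with no phosphatase gene of that length. Within 10 to 30 kb, the class that holds 11 genes of each kind, kinase and phosphatase genes thus had the same share.

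A second measure, chosen after these values were seen, was the length of sequence for which a gene's TSS is the nearest. Its median was 50.4 kb for kinase genes, 55.8 kb for phosphatase genes and 42.3 kb for protein-coding genes, so that the classes differed less in it than in gene length. Per 100 kb of this sequence there were 1.33 shared regions for kinase genes, 1.04 for phosphatase genes and 0.459 for protein-coding genes. The MAP kinase phosphatases had 1.64 and the other DUSPs 0.408. Without Dusp6, phosphatase genes had 0.624. Protein-coding genes were split into 4 bins of equal size by this length. In the lowest bin, none of 9 kinase and 5 phosphatase genes had a shared region nearest, against 7.53% of protein-coding genes. In the higher bins the counts were 4 of 7, 8 of 13 and 8 of 14 kinase genes and 1 of 5, 4 of 9 and 2 of 5 phosphatase genes, where 17.1%, 26.5% and 34.8% of protein-coding genes had one.

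**Figure D3:**
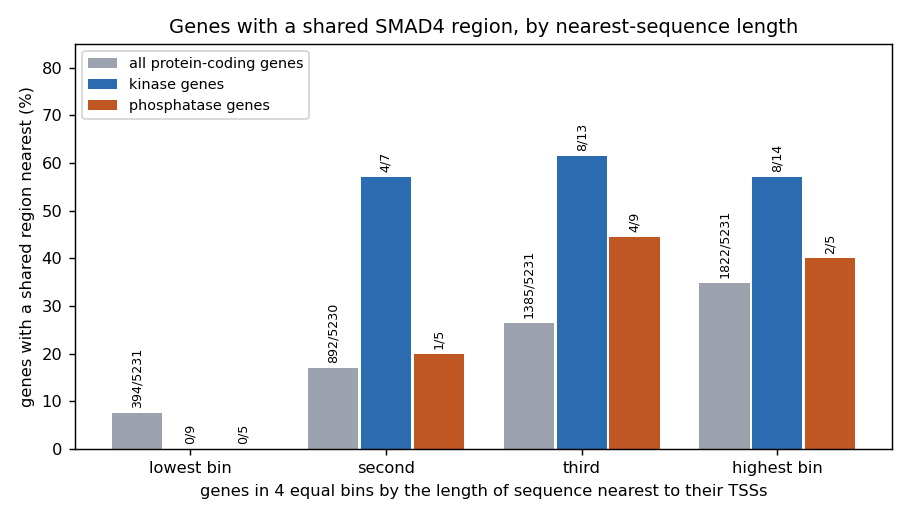
Share of genes (%) with a shared region nearest, for all protein-coding genes (grey), kinase genes (blue) and phosphatase genes (orange), in 4 equal bins of protein-coding genes by the length of sequence nearest to their TSSs. Numbers above the bars are genes with a shared region over genes in the bin. Kinase genes are above all protein-coding genes in each bin but the lowest, where none of 9 had one.

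Fold enrichment at member regions was much like that of other regions. The median of the smaller fold was 6.82 over the 79 member regions, 7.15 over kinase regions and 6.82 over phosphatase regions, and 6.50 over all shared regions. It was 10 or more in 20 member regions (25.3%) and in 23.3% of all. Replicate 2 had the higher fold in 71 of the 79, as in 87.2% of all shared regions. The median over member regions was 6.86 in replicate 1 and 10.4 in replicate 2.

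**Figure D4:**
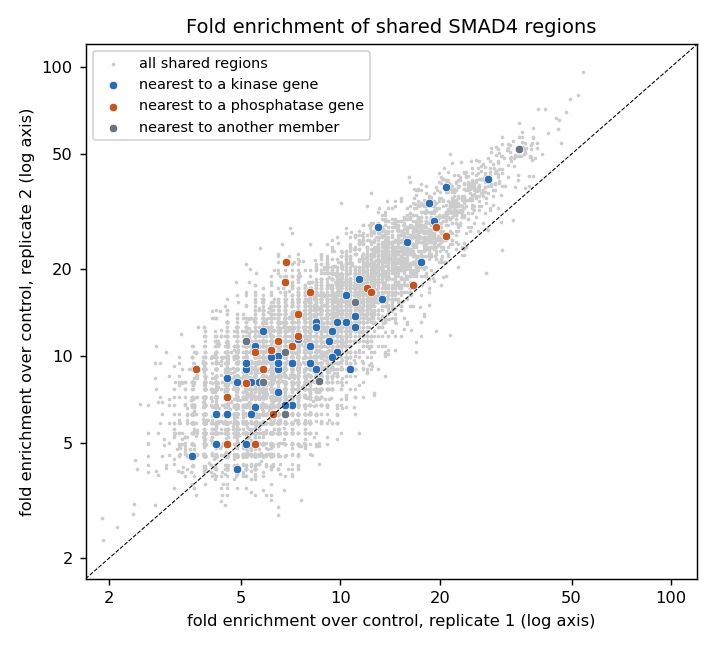
Fold enrichment over control of each shared region in replicate 1 (x axis) and replicate 2 (y axis), both log axes, for all 10964 shared regions (grey) and those nearest to kinase genes (blue), phosphatase genes (orange) and other members (dark grey). The dashed line marks equal folds, and most member regions lie above it, as most regions do.

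Nearest assignment left out regions in or beside some members. A further 30 shared regions lay within 50 kb of a member but nearer to the TSS of another gene, around 21 members, and 5 of them were inside a member's own gene body. For 10 members (5 kinases, 4 phosphatases and a scaffold) these were the only shared regions. Dusp16, a JNK and p38 phosphatase, had 4, of which the strongest lay 10230 bp upstream with folds of 21.8 and 31.6, in an intron of 1700055D16Rik. It is stronger than any region nearest to a phosphatase gene. Dusp3, which encodes VHR, had an exonic region at folds of 16.6 and 21.2 that is nearest to Sost. Intronic regions of Mapk12 (p38γ) at 8.95 and 15.1, of Map3k3 at 8.77 and 11.9 and of Map2k1 at 6.50 and 7.06 were nearest to Hdac10, Limd2 and Uchl4. Around Mapk6 a region at folds of 25.0 and 35.2 was nearest to Bcl2l10, and around Mapk7 (ERK5) 1 at folds of 12.3 and 23.5 was nearest to Rnf112.

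Among the MAP kinase phosphatases, the nuclear inducible ones (Dusp1, Dusp2, Dusp4 and Dusp5) had 2 of 4 with 5 regions. The cytoplasmic ERK phosphatases (Dusp6, Dusp7 and Dusp9) had 1 of 3 with 10, and those of JNK and p38 (Dusp8, Dusp10 and Dusp16) 1 of 3 with 2, beside the 21.5% of all protein-coding genes. These are counts by nearest TSS, and all 10 cytoplasmic regions were of Dusp6. Within 50 kb the order was another, with 7, 3 and 5 regions in turn. They lay near 2 of 4, 1 of 3 and 2 of 3 genes, beside 37.5% of protein-coding genes. The groups are small, and their shares were not tested.

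Other genes of the pathway, from a list of 42 that covers upstream GTPases, kinases and their regulators, adaptors, TAK1 partners and MAPK-activated kinases, had a shared region nearest in 16 cases (38.1%, against 21.5%), with 33 regions. The sequence for which their TSS is the nearest was also longer, with a median of 81.4 kb against 42.3 kb for protein-coding genes, and per 100 kb of it there were 0.611 shared regions against 0.459. The ERK scaffold Ksr1 and the p38 substrate Mapkapk2 had 5 each, with best folds of 10.4 and 14.4 and of 9.75 and 15.8, and Mapkapk3 had 3. The kinases Mknk1, Rps6ka2, Rps6ka3 and Rps6ka5, the adaptor Grb2 and the Ras inhibitors Nf1 and Spred1 had 2 each. The TAK1 partners Tab1, Tab2 and Tab3 and the GTPase genes Hras and Nras had none, and neither did Spry1, Spry2 and Spry4.

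Consensus strings were about as frequent at member regions as elsewhere, with some exceptions in small counts. Within 100 bp of the summit, the CEBP string was in 18 of 79 member regions (22.8%) and in 23.6% of all shared regions, the RUNX string in 21 (26.6%) and 26.4%, and GTCTGG in 10 (12.7%) and 11.2%. The AP-1 string was in 15 (19%) against 12.3%, and the PU.1 string in 1 (1.27%) against 8.0%. The ETS string was in 3 (3.80%) against 5.62%, and GTCTAGAC in 1 (1.27%) against 0.465%. Kinase and phosphatase regions held the CEBP string in 12 of 51 (23.5%) and 5 of 21 (23.8%), the AP-1 string in 9 (17.6%) and 4 (19%), and the RUNX string in 16 (31.4%) and 3 (14.3%). Within 200 bp the AP-1 string was in 31.6% of member regions and 19.5% of all, and the PU.1 string in 3.80% and 10.9%. The PU.1 string was then in 1 of 51 kinase regions (1.96%) and 2 of 21 phosphatase regions (9.52%). Kinase and phosphatase regions were closer for the RUNX string in this window, at 43.1% and 38.1%, beside 38.9% of all. All 6 Mapk14 regions held a string, and 4 of the 10 Dusp6 regions did. At least 1 string was found in 52 member regions and none in 27.

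**Figure D5:**
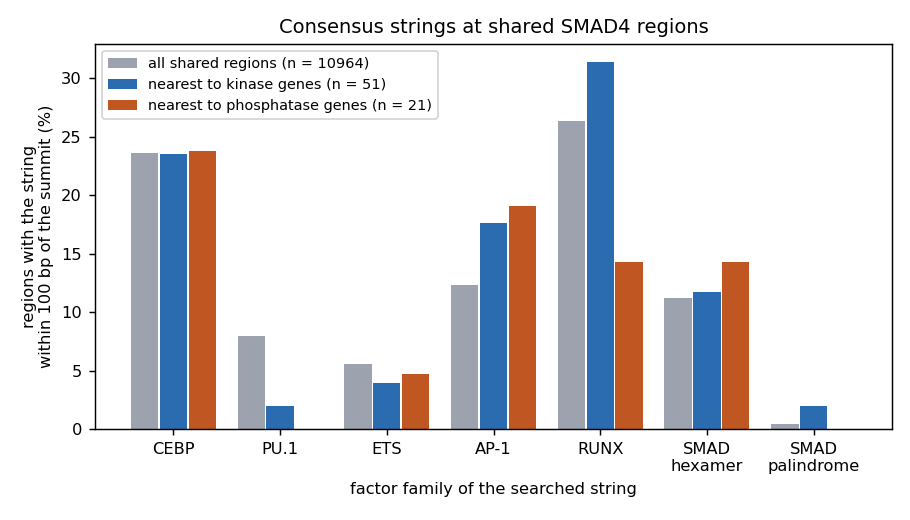
Share of shared regions (%) with each consensus string within 100 bp of the summit, for all shared regions (grey, n = 10964), regions nearest to kinase genes (blue, n = 51) and regions nearest to phosphatase genes (orange, n = 21). The CEBP share is about the same in the 3 sets, and the PU.1 share is lowest at the members.

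Of the library facts that touch these counts, the median peak had 17 fragments at its summit in replicate 1 and 14 in replicate 2, and the genome-wide control level was 2.08 and 1.22 fragments, so that the same fold stands for fewer fragments in replicate 2. Sequencing depth itself was not used here. Peaks measure binding and not cell identity. Of 8 AM marker genes, 7 (87.5%) had a shared region nearest, against 21.5% of protein-coding genes. Pparg had 11 and Fabp4 had none. Of 7 marker genes of other lung cells, Scgb1a1 had 4 and Pecam1 2, and the other 5 had none. Their share, 28.6%, was also above that of protein-coding genes. The part of other cells in the member counts was not tested.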

How the data were processed

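Before deposit, the authors' pipeline used cutadapt for trimming, Bowtie2 for alignment to mm10 and SAMtools for filtering, and MACS3 called peaks for each SMAD4 library against input at a q-value limit of 0.05 (tool names from the submitters' processing notes, without versions). For each peak they deposited a score, a fold ratio of pileup over control, a −log10 p-value, a −log10 q-value and a summit offset in bp. The score was not used. Input libraries had no values of their own here.

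Fragments at each summit were solved from the deposited fold ratio and −log10 p-value, and came out whole in all 16369 and 19015 peaks (gap under 0.01 in −log10 p), with at least 9 and 7 fragments. Genes were those of 45657 curated RefSeq transcripts of GRCm38.p6 on chromosomes 1 to 19 and X. The region position was the mean of both summits. Features were assigned in the order promoter, transcription end, exon, intron, intergenic. Overlap, assignment and pileup steps were tested on simulated data. No model or p-value over genes was used, because there are 2 libraries and no group contrast. Values are given as mean ± SD over the lists.

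The members and lists were chosen with earlier results of these data known. Named were all members with a shared region nearest, the 3 members of each class with the strongest regions in full, those with peaks in 1 list alone, and Map3k7, Map2k1, Mapk3, Mapk8, Mapk14, Dusp1 and Dusp6 whatever their values. Some results are not reported here, and their genes are left out of the plots that name genes but stay in the counts. Alternatives changed the overlap rule, q limit, fold minimum, list, TSS set, position, distance, gene classes and window. Python 3.11.15, numpy 2.4.6, pandas 2.3.3, scipy 1.17.1, pysam 0.24.0, samtools 1.23.1 and matplotlib 3.10.9 were used.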

Additional observations from a re-analysis of the deposited data

How the results depend on the processing

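No test was made, so that no call could change, and alternatives were compared by value. Under the 13 settings that give both shares, the main one included, the kinase share with a shared region nearest was above the phosphatase share, and both were above the share of protein-coding genes. This gap in the nearest-gene shares was smallest, at 6.51 percentage points, when phosphatases were limited to the MAP kinase phosphatases. Counts stayed within 1.5 times their reported value except as follows. With all peaks of 1 list in place of shared regions, phosphatase genes with a nearest region numbered 9 to 11 in place of 7, and regions nearest to them 30 to 36 in place of 21. Only the upper value of each range, 11 genes in replicate 1 and 36 regions in replicate 2, passed the limit. The other ranges stayed within it. They were 20 to 24 kinase genes nearest, 66 to 75 kinase regions, and 28 to 30 kinase genes and, in both lists, 14 phosphatase genes within 50 kb. The median fold over all peaks nearest to members was 6.17 in replicate 1 and 8.12 in replicate 2. Over the 79 shared regions nearest to members it was 6.86 and 10.4. With windows centred on the summit of 1 replicate, 19 to 21 of these shared regions held a CEBP string in place of 18, also within the limit. With a 10 kb limit, 11 kinase and 6 phosphatase genes had a shared region, in place of 25 and 11 at 50 kb. The kinase excess was then all but gone, at 0.581 percentage points (25.6% and 25%, beside 14.6% of protein-coding genes), where it was 12.3 points at 50 kb and 18.9 at 100 kb. Limiting phosphatases to the 10 MAP kinase phosphatases left 4 genes nearest and 5 within 50 kb. Leaving out Dusp6, a choice made after its count was seen, left 11 phosphatase regions. No paired analysis was possible because both SMAD4 libraries belong to 1 group. Depth limits what the weakest peaks show, since the lowest summits held 9 fragments in replicate 1 and 7 in replicate 2, and a peak of that size missing from a list does not show that binding was absent.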
